A study of Mus musculus with 28 samples.

Results

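The Tet dioxygenases Tet1, Tet2 and Tet3 and the DNA glycosylase Tdg were followed through the RNA-seq of mouse embryonic stem cells (ESCs). The genes were chosen by symbol, and all 4 were found among the 17342 genes of the deposited table. The cells were V6.5 ESCs, a male line of mixed 129/C57BL/6 background, cultured in serum and LIF, the cytokine that maintains self-renewal. Per the labels, RNA was taken from 3 independent Tet2-WT (Tet2 wildtype) ESC cultures, 2 Tet2-Mut (Tet2 mutant) clones and 2 Tet2-KO (Tet2 knockout) clones, and no other allele or agent is named for any group. Each mutant genotype is thus represented by 2 clones, and the labels describe neither the mutation nor the deleted part of Tet2. All cells had been kept on feeder fibroblasts, which were removed by pre-plating before a night on gelatin. The series asks what Tet2 does apart from catalysis, so 3 comparisons follow: Tet2-KO and Tet2-Mut each against Tet2-WT, and Tet2-KO against Tet2-Mut.

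Tet enzymes use iron and 2-oxoglutarate to oxidize 5-methylcytosine in DNA, first to 5-hydroxymethylcytosine and then to 5-formylcytosine and 5-carboxylcytosine. Tdg, thymine DNA glycosylase, cuts out the last pair of these bases, and base excision repair then puts back an unmodified cytosine. Mouse ESCs are known for expressing Tet1 and Tet2, while Tet3 is the form of the oocyte and of differentiating cells. The same oxidation acts mainly at cytosines followed by guanine (CpG).

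All 18 ESC markers were detected in every library, from the lowest, Prdm14, at 566 to 1182, to the highest, Pou5f1. The pluripotency factors Pou5f1, Sox2 and Nanog lay between 52320 and 72700, between 26550 and 33440 and between 18680 and 25900 normalized counts (gene counts divided by a size factor per library) over the 7 libraries. In Tet2-KO against Tet2-WT the 18 had a median log2 difference of -0.19, with 2 above 0. Lin28a rose, and Tbx3 and Tdgf1 fell by 0.87 and 0.37 (limma adjusted p = 0.00847 and 0.0231). The libraries held 41909397 to 58476612 reads assigned to genes. Clones differed more than cultures: the chi-square per degree of freedom of 2 libraries of a group was 7.14 to 13.2 within Tet2-WT, 44.1 within Tet2-Mut and 33.4 within Tet2-KO. The p-values measure the spread between these cultures and clones, which all groups share in 1 estimate. That estimate also draws on the more similar Tet2-WT cultures, so it can understate the spread between clones. The formative and primed pluripotency markers summed to between 37052 and 37773 normalized counts in Tet2-WT, to 52664 and 41731 in Tet2-Mut replicates 1 and 2, and to 87071 and 66631 in Tet2-KO replicates 1 and 2, and without Dnmt3a and Dnmt3b, which recur among the enzymes of cytosine methylation, to between 6948 and 8049, to 11743 and 4913, and to 20185 and 16487. Fibroblast markers, of which 26 of 28 were in the table (without Lum and Dcn), summed to between 60101 and 64705 in Tet2-WT, 55509 and 68917 in Tet2-Mut and 72341 and 90448 in Tet2-KO. In Tet2-KO against Tet2-WT 9 of 26 fibroblast markers, 5 of 10 formative and primed, 5 of 8 mesoderm, 3 of 6 trophectoderm and 3 of 5 neural markers rose, beside 3% of all genes tested. Mesoderm markers summed to between 695 and 843 in Tet2-WT, 612 and 481 in Tet2-Mut and 2156 and 1624 in Tet2-KO. Trophectoderm markers summed to between 4256 and 5415, to 3693 and 4320 and to 17751 and 9681 in the same order, and neural markers to between 6891 and 8087, to 10154 and 10629 and to 14146 and 10704. Single genes dominated some sums. The keratins Krt8 and Krt18 held 10830 and 6649 of the trophectoderm sum in Tet2-KO replicate 1. Cdx2 rose with them in Tet2-KO, while Hand1, Gata3 and Elf5 did not. Nes made most of the neural rise, with 7874 and 4416 in Tet2-KO, while Sox1 was lower there than in Tet2-WT. Fn1 alone held 38670 to 57220 of the fibroblast sums. The endoderm sums overlapped, at 402 to 646 in Tet2-WT, 435 and 761 in Tet2-Mut and 602 and 415 in Tet2-KO. None of the fibroblast markers was at 0 in any library, and Twist2, Postn and S100a4 stayed under 50 in every library.

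The start regions of the 4 genes are shown because CpG is what these enzymes act on, and because that of Tet2 stands apart from the others in CpG content. Each run holds 250 bases before and 50 after the annotated start in RefSeq (GRCm38.p6, the mm10 build), 5′ to 3′ on the gene's strand, with every CpG in capitals. Each start is that of 1 annotated transcript and lies inside the span of the gene, farthest in for Tet3. The regions are chr10:62887275-62887574 (minus strand) for Tet1, chr3:133544341-133544640 (minus) for Tet2, chr6:83441629-83441928 (minus) for Tet3 and chr10:82629588-82629887 (plus) for Tdg.
Tet1: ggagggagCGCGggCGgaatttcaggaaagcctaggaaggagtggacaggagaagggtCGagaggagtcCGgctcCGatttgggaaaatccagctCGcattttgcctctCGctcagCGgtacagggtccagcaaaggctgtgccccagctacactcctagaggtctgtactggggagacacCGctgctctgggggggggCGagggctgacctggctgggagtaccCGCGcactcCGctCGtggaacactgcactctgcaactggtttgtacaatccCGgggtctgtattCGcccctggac
Tet2: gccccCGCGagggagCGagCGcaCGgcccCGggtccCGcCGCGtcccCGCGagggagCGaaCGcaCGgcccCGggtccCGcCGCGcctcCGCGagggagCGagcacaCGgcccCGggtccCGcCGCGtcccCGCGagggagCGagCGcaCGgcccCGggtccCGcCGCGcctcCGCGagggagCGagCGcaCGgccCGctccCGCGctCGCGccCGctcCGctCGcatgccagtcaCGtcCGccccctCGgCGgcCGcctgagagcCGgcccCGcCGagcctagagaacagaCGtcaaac
Tet3: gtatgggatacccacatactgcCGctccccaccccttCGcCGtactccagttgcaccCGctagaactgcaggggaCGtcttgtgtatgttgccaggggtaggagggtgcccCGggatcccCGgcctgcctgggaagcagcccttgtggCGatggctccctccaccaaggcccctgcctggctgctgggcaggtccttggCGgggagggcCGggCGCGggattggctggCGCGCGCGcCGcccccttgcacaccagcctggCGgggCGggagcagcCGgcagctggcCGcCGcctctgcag
Tdg: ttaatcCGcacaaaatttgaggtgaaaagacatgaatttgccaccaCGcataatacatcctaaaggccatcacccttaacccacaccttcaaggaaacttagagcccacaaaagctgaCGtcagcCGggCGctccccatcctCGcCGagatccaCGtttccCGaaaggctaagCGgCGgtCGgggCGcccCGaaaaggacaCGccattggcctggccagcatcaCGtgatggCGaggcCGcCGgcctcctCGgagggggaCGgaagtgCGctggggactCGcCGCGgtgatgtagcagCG
The Tet2 region held 57 CpGs, a count reached by 0.2% of 32851 RefSeq start regions of this length, whose median was 7. It also held a run of 43 bases that occurs more than once, and a word of 20 bases that occurs 4 times. The regions of Tdg, Tet3 and Tet1 held 26, 22 and 17 CpGs, counts reached by 16.9%, 23.1% and 31.4% of start regions, and no word of 20 bases occurred more than once in them. The methylation of these CpGs was not analysed here.

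Tet2, the gene targeted in this series, lies on chromosome 3 (133463677 to 133545136). Its normalized count was 10343, 10244 and 12074 in Tet2-WT replicates 1, 2 and 3, 9992 and 13181 in Tet2-Mut, and 4624 and 5206 in Tet2-KO. Both Tet2-KO clones lay below all other libraries, while the Tet2-Mut clones fell on either side of the Tet2-WT range. The Tet2-KO clones kept 42.5% and 47.8% of the Tet2-WT mean, and a count per gene does not tell which exons these reads came from. Against Tet2-WT, Tet2 fell by 1.15 on the log2 scale in Tet2-KO (SE 0.12, limma adjusted p = 0.00522), and it did so with each of the 7 libraries left out in turn. Against Tet2-Mut it fell by 1.23 (95% interval -1.53 to -0.92, limma adjusted p = 0.00382). When limma's prior took no account of expression level, these adjusted p-values were 0.0742 and 0.0581. In Tet2-Mut the log2 difference was 0.08 with a 95% confidence interval from -0.20 to 0.36 (limma adjusted p = 0.763), and without Tet2-Mut replicate 2 it was -0.12. That interval runs from 0.872 to 1.28 times the Tet2-WT level.

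Tet1 (chromosome 10, 62804570 to 62887469) encodes the Tet enzyme with a CXXC DNA-binding domain that is most studied in ESCs. It stood at 27345, 26939 and 29189 normalized counts in Tet2-WT, at 31464 and 37431 in Tet2-Mut and at 23681 and 22462 in Tet2-KO. The 3 genotypes did not overlap: both Tet2-Mut clones lay above the Tet2-WT cultures and both Tet2-KO clones below them. The share of all genes that separate in such ways was not computed. Lack of overlap is therefore only description, here and for the genes and ratios below. Tet2-KO fell below Tet2-Mut by 0.57 on the log2 scale (SE 0.09, limma adjusted p = 0.00787), 0.672 times its level with a 95% interval from 0.585 to 0.772, and this call held with each of the 7 libraries left out, though not without the mean trend in limma's prior (adjusted p = 0.0854). Neither clone type passed the test against Tet2-WT. The log2 difference was -0.27 in Tet2-KO (95% interval -0.45 to -0.09, limma adjusted p = 0.0852) and 0.30 in Tet2-Mut (0.12 to 0.49, adjusted p = 0.0765). Both depended on the libraries in the fit: the first had an adjusted p of 0.0202 without Tet2-Mut replicate 1 and of 0.0207 without Tet2-Mut replicate 2, and of 0.189 to 0.221 without any 1 Tet2-WT culture or Tet2-KO clone. The second had an adjusted p of 0.00689 without Tet2-Mut replicate 1 (0.43) and of 0.282 without Tet2-Mut replicate 2 (0.18), and of 0.275, 0.267 and 0.122 without Tet2-WT replicates 1, 2 and 3.

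Tet3 (chromosome 6, 83362373 to 83457208), the third dioxygenase, had the fewest reads of the 4 genes, 364 to 764 a library. Its normalized count was 459, 437 and 430 in Tet2-WT, 509 and 698 in Tet2-Mut and 789 and 596 in Tet2-KO. Every clone lay above every Tet2-WT culture, and the Tet2-Mut and Tet2-KO clones overlapped. The differences from Tet2-WT did not pass, with a log2 difference of 0.63 in Tet2-KO (95% interval 0.24 to 1.02, limma adjusted p = 0.0648) and 0.43 in Tet2-Mut (0.04 to 0.82, adjusted p = 0.201). The spread between clones was wide, with a coefficient of variation of 19.7% in Tet2-KO and 22.2% in Tet2-Mut against 3.51% in Tet2-WT. The Tet2-KO difference passed without Tet2-Mut replicate 1 (adjusted p = 0.019), Tet2-Mut replicate 2 (0.0207) or Tet2-KO replicate 2 (0.0421), and the Tet2-Mut difference without Tet2-Mut replicate 1 (0.0387). Between Tet2-KO and Tet2-Mut the log2 difference was 0.20 with an interval from -0.23 to 0.63, and it was -0.03 without Tet2-Mut replicate 1 and -0.0014 without Tet2-KO replicate 1.

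Tdg lies on chromosome 10 (82629814 to 82650799). It stood at 4225, 4303 and 4211 normalized counts in Tet2-WT, a coefficient of variation of 1.17%, at 5050 and 4526 in Tet2-Mut and at 5716 and 5050 in Tet2-KO. All 4 clones lay above the Tet2-WT cultures. Tdg rose by 0.34 on the log2 scale in Tet2-KO (SE 0.08, limma adjusted p = 0.0419), 1.27 times the Tet2-WT level with a 95% interval from 1.12 to 1.43. The call did not hold without Tet2-WT replicate 1 (adjusted p = 0.142), 2 (0.134) or 3 (0.129) or without Tet2-KO replicate 1 (0.248). In Tet2-Mut the log2 difference was 0.17 (95% interval -0.01 to 0.35, limma adjusted p = 0.259), and Tet2-KO against Tet2-Mut gave 0.17 (-0.03 to 0.37, adjusted p = 0.325). With 1 library left out the first ranged from 0.09 (without Tet2-Mut replicate 1) to 0.25, and the second from 0.08 (without Tet2-KO replicate 1) and 0.09 (without Tet2-Mut replicate 2) to 0.26.

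The Tdg value is uncertain because the table also lists Tdg-ps2, a transcribed pseudogene of Tdg elsewhere on chromosome 10 (42052558 to 42055453), and the sources used here do not say how reads that fit both were assigned. Tdg-ps2 had 1020, 1038 and 1152 normalized counts in Tet2-WT, 1296 and 1149 in Tet2-Mut and 1308 and 1138 in Tet2-KO. Its groups overlapped, with a log2 difference of 0.19 in Tet2-KO against Tet2-WT (limma adjusted p = 0.343). With both genes summed, a choice made after their values were seen, Tet2-KO exceeded Tet2-WT by 0.31 (95% interval 0.13 to 0.49) at an adjusted p of 0.0534, so the pair together missed the threshold that Tdg alone passed.

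**Figure D1:**
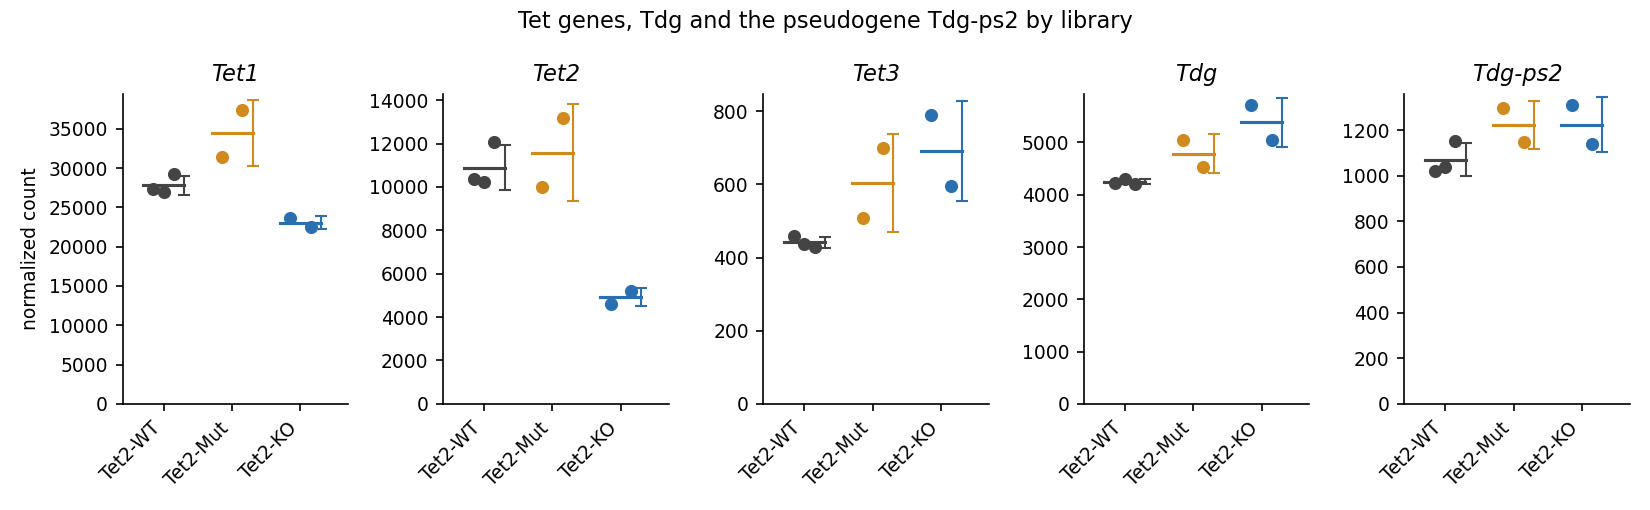
Normalized counts of Tet1, Tet2, Tet3, Tdg and the pseudogene Tdg-ps2 in each library, with points for the 3 Tet2-WT cultures and the 2 Tet2-Mut and 2 Tet2-KO clones, lines for group means and bars for 1 SD. Tet2 stands at 4624 and 5206 in Tet2-KO, below all other libraries, and Tet1 falls into 3 groups that do not overlap.

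Of the 4 genes, 2 passed the test in Tet2-KO against Tet2-WT, Tet2 lower and Tdg higher, where 5.91% of all 17338 genes tested did so, 3% higher and 2.91% lower. In Tet2-KO against Tet2-Mut it was 2, Tet1 and Tet2, both lower, against 6.19% of all genes, 2.64% higher and 3.55% lower. Tet2 is the gene targeted, so only the calls of Tdg and Tet1 in these comparisons concern genes that were not. In Tet2-Mut against Tet2-WT limma called 0 of 4, against 3.43% of all genes (1.44% higher and 1.98% lower). An unadjusted p under 0.05 was reached by 2 of the 4 and by 3651 of all 17338 genes. On the recovered reads edgeR called 0 of the 4 and DESeq2 called 1, Tet1. The comparisons share their Tet2-WT or clone libraries, so these counts are not independent of each other. Bulk RNA does not tell less RNA per cell from fewer cells that express a gene.

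**Figure D2:**
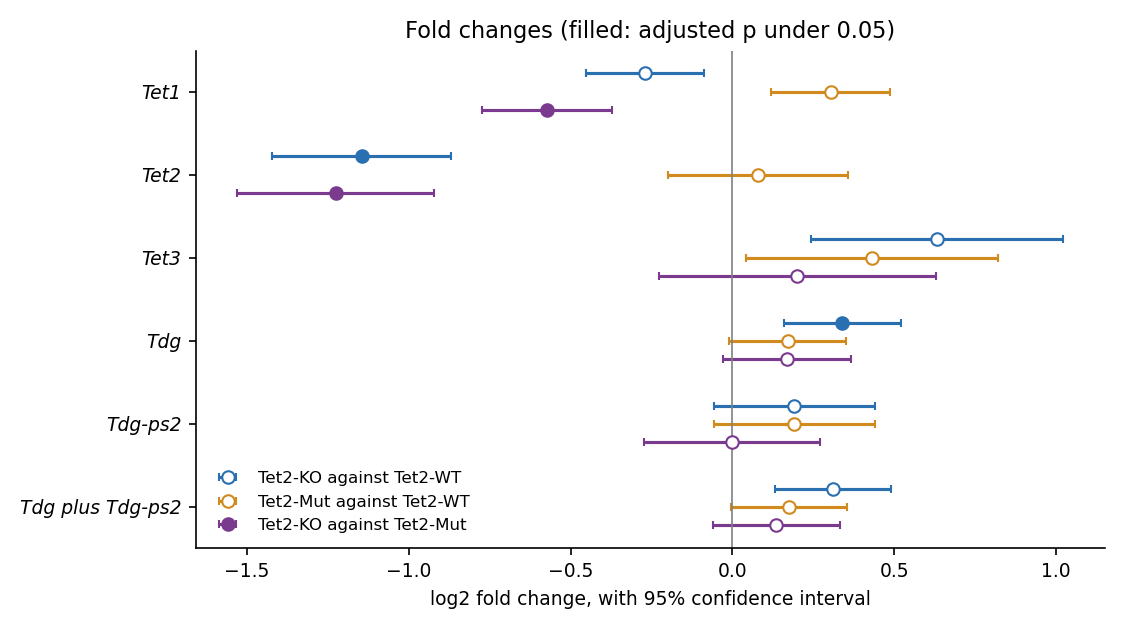
Log2 fold changes on the log2(normalized count + 1) scale with 95% confidence intervals for the 3 comparisons, filled where the adjusted p was under 0.05. The Tet2 points of both Tet2-KO comparisons lie at -1.15 and -1.23, and summing Tdg with Tdg-ps2 moves the Tet2-KO point from 0.34 to 0.31.

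The balance between the dioxygenases was followed by the ratio of their counts within a library. Gene length cancels between groups only if the counted exons of a gene are the same in each. The labels do not describe the deleted part of Tet2, so in Tet2-KO its ratios cannot tell fewer transcripts from missing exons. The log2 ratio of Tet1 to Tet2 was 1.40, 1.40 and 1.27 in Tet2-WT, 1.66 and 1.51 in Tet2-Mut and 2.36 and 2.11 in Tet2-KO. It increased without overlap from Tet2-WT to Tet2-Mut to Tet2-KO, the last 1.84 times the Tet2-WT ratio. The log2 ratio of Tet2 to Tet3 was 4.49 to 4.81 in Tet2-WT, 4.30 and 4.24 in Tet2-Mut and 2.55 and 3.13 in Tet2-KO, a decline to 0.291 times the Tet2-WT ratio in Tet2-KO and to 0.783 times in Tet2-Mut. The log2 ratio of Tet1 to Tet3 was 5.90, 5.95 and 6.09 in Tet2-WT, 4.91 and 5.24 in Tet2-KO and 5.95 and 5.74 in Tet2-Mut, where it overlapped Tet2-WT. Over 9 such comparisons the two-sided exact permutation test gave p = 0.1 for each ratio in Tet2-KO against Tet2-WT (adjusted p = 0.18). This is the smallest p that 3 libraries against 2 allow. In Tet2-Mut against Tet2-WT the same test also gave 0.1 for Tet1 to Tet2 and Tet2 to Tet3 (adjusted p = 0.18). For Tet1 to Tet3 it gave 0.5 there. For 2 clones against 2 the smallest exact p is 0.333, which all 3 ratios gave. Levels of the 3 genes were not compared with each other, since exon lengths were not used here.

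The clones of a genotype also differed from each other. Relative to the Tet2-WT mean, Tet2-Mut replicate 1 stood at 113%, 91.8% and 115% for Tet1, Tet2 and Tet3, and Tet2-Mut replicate 2 at 134.5%, 121% and 158%. All 3 dioxygenases were thus higher in Tet2-Mut replicate 2, whereas Tdg was higher in replicate 1, 119% against 107%. In Tet2-KO replicate 1 Tet3 and Tdg stood at 178% and 135% and in replicate 2 at 135% and 119%. Tet2-KO replicate 1 was also the library with the largest sums of formative, fibroblast, mesoderm, neural and trophectoderm markers, and the part of any of them in the Tet3 and Tdg levels was not tested.

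The genes with the most similar patterns were found by the root mean square difference of log2(normalized count + 1), centred on each gene's mean over the 7 libraries, among 11445 genes with a mean of at least 100. For Tet1 they were Arhgef7, Eps15l1 and Kat6a, at differences of 0.029, 0.0337 and 0.043. For Tet2 they were Myo1f, Sfrp1 and Adgre5, at 0.117, 0.122 and 0.141. Zfp36, Rap2b and Ccnd1 came closest to Tet3, at 0.071 to 0.0915, and Impact, Slc39a10 and Atad1 closest to Tdg, at 0.0335 to 0.042. Among the genes themselves, Tet3 and Tdg differed least (0.224) and Tet2 and Tet3 most (0.775). Kat6a, a histone acetyltransferase, had 5485, 5437 and 5972 normalized counts in Tet2-WT, 6501 and 7562 in Tet2-Mut and 4556 and 4253 in Tet2-KO, the same order of groups as Tet1.

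All 3 genes nearest to Tet1, and Sfrp1 and Adgre5 nearest to Tet2, lie on chromosome 8, which holds 5.5% of the candidate genes. The median of 861 chromosome 8 genes, relative to the Tet2-WT mean, was 0.28 and 0.27 on the log2 scale in the Tet2-Mut clones and -0.28 and -0.24 in the Tet2-KO clones. Tet1, on chromosome 10, stood at 0.18 and 0.43 in the same Tet2-Mut clones and at -0.23 and -0.31 in the Tet2-KO clones. Of the chromosome 8 genes, 136 rose and 6 fell in Tet2-Mut against Tet2-WT, where 250 of all genes rose. In Tet2-KO against Tet2-WT 11 rose and 140 fell, beside 1025 of all genes past the test in either direction. In Tet2-KO against Tet2-Mut, where Tet1 passed, 3 rose and 396 fell, while 616 of all genes fell. The chromosome 8 median there was -0.52, beside -0.57 for Tet1. The shares of all genes given as background include these chromosome 8 genes. The medians of chromosomes 3, 6 and 10, where the 4 genes lie, stayed between -0.02 and 0.07 in every library. The part of the chromosome 8 shift in the Tet1 level was not tested.

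**Figure D3:**
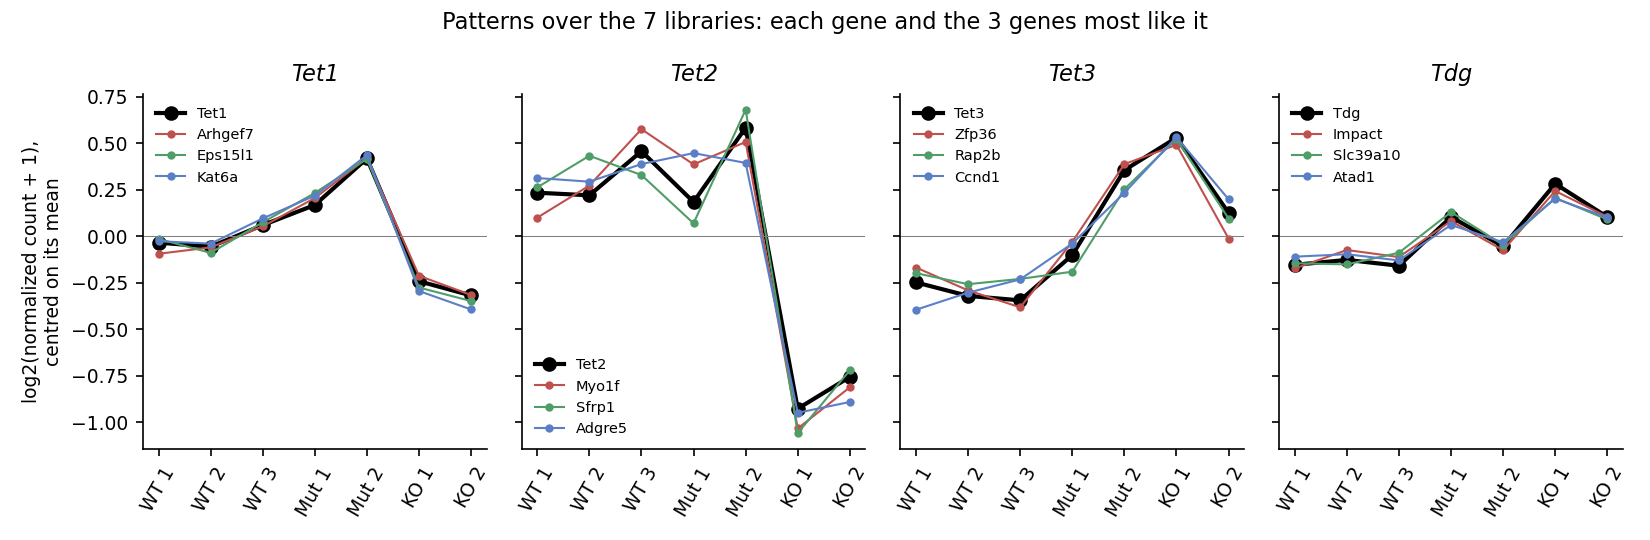
Log2(normalized count + 1), centred on each gene's mean, in the 7 libraries for Tet1, Tet2, Tet3 and Tdg (black) and the 3 genes most like each (coloured); lines only join the values of a gene. The companions of Tet1 are highest in Tet2-Mut replicate 2 and lowest in Tet2-KO, and those of Tet3 highest in Tet2-KO replicate 1.

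Genes around the 4 loci were read from the same fit. All genes passed at 5.91% in Tet2-KO and 3.43% in Tet2-Mut against Tet2-WT. In Tet2-KO against Tet2-Mut the share was 6.19%. The counts of calls near each locus are small and are given as description. Within 500 kb of Tet2, 4 genes were tested, and limma called 0 in any comparison. Their median log2 difference in Tet2-KO against Tet2-WT was 0.04, beside -1.15 for Tet2 itself. Near Tet1, 1 of 19 genes passed in Tet2-KO against Tet2-WT and 1 in Tet2-Mut, both times the hexokinase gene Hk1, which fell by 0.82 and 1.19. Near Tet3, 2 of 32 passed in Tet2-KO, Dok1 and Aup1, both higher, a share near the 5.91% of all genes. In Tet2-Mut against Tet2-WT 3 of 32 passed, with Aup1 and Mthfd2 higher by 0.44 and 0.58 and Slc4a5 lower (-1.83), and in Tet2-KO against Tet2-Mut Slc4a5 was higher by 2.38. The last comparison had 1 call near Tet1, Dna2, which fell by 0.42. Near Tdg limma called 0 of 11 in any comparison. By annotation Gm51805 overlaps Tet1, B230319C09Rik and Mir6374 overlap Tet3 and Glt8d2 overlaps the end of Tdg. These were not analysed here, and the sources used here do not say whether counting used strand, so reads of overlapping genes cannot be told apart.

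**Figure D4:**
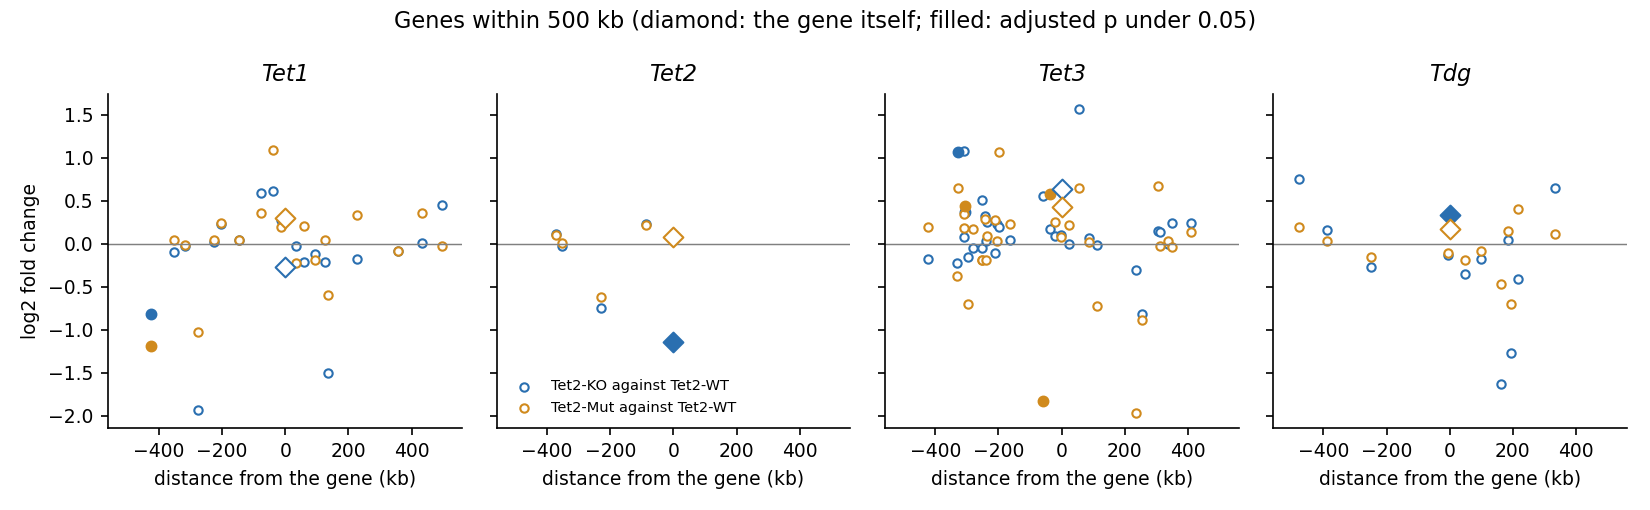
Log2 fold changes against Tet2-WT of genes within 500 kb of each locus by distance in kb, with the gene itself as a diamond and filled symbols where the adjusted p was under 0.05. Tet2 in Tet2-KO lies at -1.15 while its 4 tested neighbours lie between -0.75 and 0.23.

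Among the enzymes that write the mark, the de novo methyltransferase Dnmt3b rose in Tet2-KO against both other genotypes. It was the 1 of 5 genes of cytosine methyltransferases and Uhrf1 to pass there, while 3 passed in Tet2-Mut against Tet2-WT. All genes passed at 5.91% in Tet2-KO against Tet2-WT, 6.19% in Tet2-KO against Tet2-Mut and 3.43% in Tet2-Mut against Tet2-WT. Dnmt3b stood at 20723, 21181 and 21243 normalized counts in Tet2-WT, 28625 and 21915 in Tet2-Mut and 54040 and 39689 in Tet2-KO. It rose by 1.14 on the log2 scale in Tet2-KO against Tet2-WT (limma adjusted p = 0.00564) and by 0.89 against Tet2-Mut (0.0111), with each library left out in turn. In Tet2-Mut against Tet2-WT the partner de novo enzyme Dnmt3a rose by 0.60 (limma adjusted p = 0.0313), while the cofactor Dnmt3l and Uhrf1, which brings Dnmt1 to replicated DNA, fell by 0.74 and 0.30 (0.0323 and 0.0328). Dnmt3a and Dnmt3b also stand among the formative and primed markers given above, whose sum was highest in the same Tet2-KO clones, and the part of that state in these levels was not tested. The 3 Tet2-Mut calls did not hold without Tet2-WT replicate 1, 2 or 3 or Tet2-Mut replicate 2. In Tet2-KO against Tet2-WT, Dnmt3a, Dnmt3l, Uhrf1 and the maintenance enzyme Dnmt1 had log2 differences of 0.38, -0.54, -0.18 and -0.19, and none passed (limma adjusted p between 0.0587 and 0.115). All 5 genes had an unadjusted p under 0.05 there, as did 4019 of all 17338 genes tested. Tet2-KO against Tet2-Mut differed by -0.22 for Dnmt3a, 0.21 for Dnmt3l and 0.13 for Uhrf1, and none of the 3 passed (limma adjusted p = 0.353, 0.506 and 0.301).

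A list of 23 base excision repair genes and partners of Tdg, called repair genes here, also held other glycosylases and the Gadd45 genes. Limma called 0 of the 23 in Tet2-KO against Tet2-WT, beside 5.91% of all genes. An unadjusted p under 0.05 was reached by 8 of the 23, beside 4019 of all 17338 genes tested. On the recovered reads edgeR called 0 and DESeq2 called 4, 1 higher and 3 lower, and limma with only the 2 groups called 5. Their median log2 difference was -0.15 beside -0.002 for all genes, and the smallest p belonged to the glycosylase Nthl1 (-0.43, limma adjusted p = 0.0504). The limma count of 0 was not stable. On all 7 libraries limma called 1, lower, with a pseudocount of 10 or a filter at a mean of at least 50. It also called 1, lower, with upper quartile scaling or quantile normalization. The count moved as well without Tet2-Mut replicate 1 or 2 or Tet2-KO replicate 2, fits that left 1 library in a group. More of all genes passed in each of these fits too. In Tet2-Mut against Tet2-WT the growth arrest genes Gadd45a and Gadd45b, which have been linked to demethylation, rose by 0.55 and fell by 0.87 (limma adjusted p = 0.0329 and 0.0227). Both calls were lost without Tet2-WT replicate 1 or 2 or Tet2-Mut replicate 2, and that of Gadd45a also without Tet2-WT replicate 3. In Tet2-KO against Tet2-Mut, Gadd45g rose by 1.93 (limma adjusted p = 0.0206), from 371 and 149 to 800 and 1005, and lost its call without Tet2-KO replicate 1 or 2. The repair polymerase gene Polb, on chromosome 8, fell by 0.47 (adjusted p = 0.0404) and kept its call only without Tet2-Mut replicate 2.

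Of 19 regulators and partners of Tet proteins, 1 rose and 1 fell in each comparison, with medians between 0.03 and 0.11. All genes passed at 5.91%, 3.43% and 6.19% in Tet2-KO and Tet2-Mut against Tet2-WT and Tet2-KO against Tet2-Mut. Ogt, the O-GlcNAc transferase that binds Tet proteins, fell by 0.36 in Tet2-KO against Tet2-WT (limma adjusted p = 0.0408), from 18873, 18322 and 16695 to 13190 and 14824. It was at 14333 and 16120 in Tet2-Mut, a log2 difference of -0.24 that did not pass (adjusted p = 0.152). Lin28a, an RNA-binding protein reported to recruit Tet1, rose by 0.73 in Tet2-KO against Tet2-WT (limma adjusted p = 0.0109) and by 0.52 against Tet2-Mut (0.0381). Ogt and Lin28a lost their calls against Tet2-WT when Tet2-KO replicate 1 was left out, or any of the 3 wildtype cultures, and Lin28a lost that against Tet2-Mut without those libraries or Tet2-Mut replicate 2. In Tet2-Mut against Tet2-WT, Nanog, a pluripotency factor that binds Tet1, fell by 0.37 (adjusted p = 0.0457) and Thap11, on chromosome 8, rose by 0.46 (0.031), calls lost without any Tet2-WT culture or Tet2-Mut replicate 2. By edgeR the adjusted p of Nanog was 0.055. Thap11 fell by 0.48 in Tet2-KO against Tet2-Mut (limma adjusted p = 0.0187) and lost this call without Tet2-WT replicate 2, Tet2-Mut replicate 2 or Tet2-KO replicate 1.

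Of 18 genes that supply or clear the cofactors of Tet enzymes, limma and edgeR called 0 in Tet2-KO against Tet2-WT, and DESeq2 called 1, higher. By limma 4 of the 18 had an unadjusted p under 0.05, beside 4019 of all 17338 genes tested. All genes were called at 5.91%. The limma count was 1 with only the 2 groups. It was also above 0 without Tet2-Mut replicate 1 or 2 or Tet2-KO replicate 2, fits that left 1 library in a group. More of all genes passed in each of these fits. The smallest p was that of the serine synthesis gene Psat1 (0.32, limma adjusted p = 0.0704). In Tet2-Mut against Tet2-WT, Idh2, a mitochondrial source of 2-oxoglutarate, fell by 0.55 (limma adjusted p = 0.0441) and D2hgdh, which clears the Tet inhibitor 2-hydroxyglutarate, by 1.25 (0.0364). The aminotransferase gene Got2 rose by 0.34 (limma adjusted p = 0.0351). These 3 calls were lost without any Tet2-WT culture or Tet2-Mut replicate 2, and edgeR gave Idh2 an adjusted p of 0.0507. In Tet2-KO against Tet2-Mut, D2hgdh rose by 1.41 (limma adjusted p = 0.0207) and Got2, on chromosome 8, fell by 0.54 (0.00477). Got2 kept this call with each library left out, and D2hgdh lost it without Tet2-WT replicate 1 or Tet2-KO replicate 1 or 2.

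Of 17 readers of methylated or oxidized cytosine, 1 passed in each comparison, beside 5.91%, 3.43% and 6.19% of all genes in the same order. The methyl-CpG binding factor Zbtb33 rose by 0.43 in Tet2-KO against Tet2-WT (limma adjusted p = 0.0476), its relative Zbtb38 fell by 0.42 in Tet2-Mut (0.0448), and Hmces, which shields abasic sites in DNA, fell by 0.56 in Tet2-KO against Tet2-Mut (0.0241). Each of the 3 calls was lost without any Tet2-WT culture. Zbtb38 had an adjusted p of 0.051 by edgeR. The calls of Zbtb33 and Hmces were also lost without Tet2-KO replicate 1, and those of Zbtb38 and Hmces without Tet2-Mut replicate 2.

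The counts of these lists moved with single libraries. Without Tet2-Mut replicate 1, more repair genes, regulators, cofactor genes and readers passed in Tet2-Mut against Tet2-WT, and more of all genes did so. The same held for all 5 lists in Tet2-KO against Tet2-Mut. In Tet2-KO against Tet2-WT, more genes of all 5 lists passed without Tet2-Mut replicate 1, Tet2-Mut replicate 2 or Tet2-KO replicate 2. More of all genes passed in these fits too. Without either Tet2-KO clone, more repair genes, regulators, cofactor genes and readers passed in Tet2-Mut against Tet2-WT, again with more of all genes. Each of these fits left 1 library in a group, so that group added nothing to the estimate of the spread. Limma without the mean trend called 0 genes of any list in the 3 comparisons, and edgeR called between 0 and 3 genes a list.

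**Figure D5:**
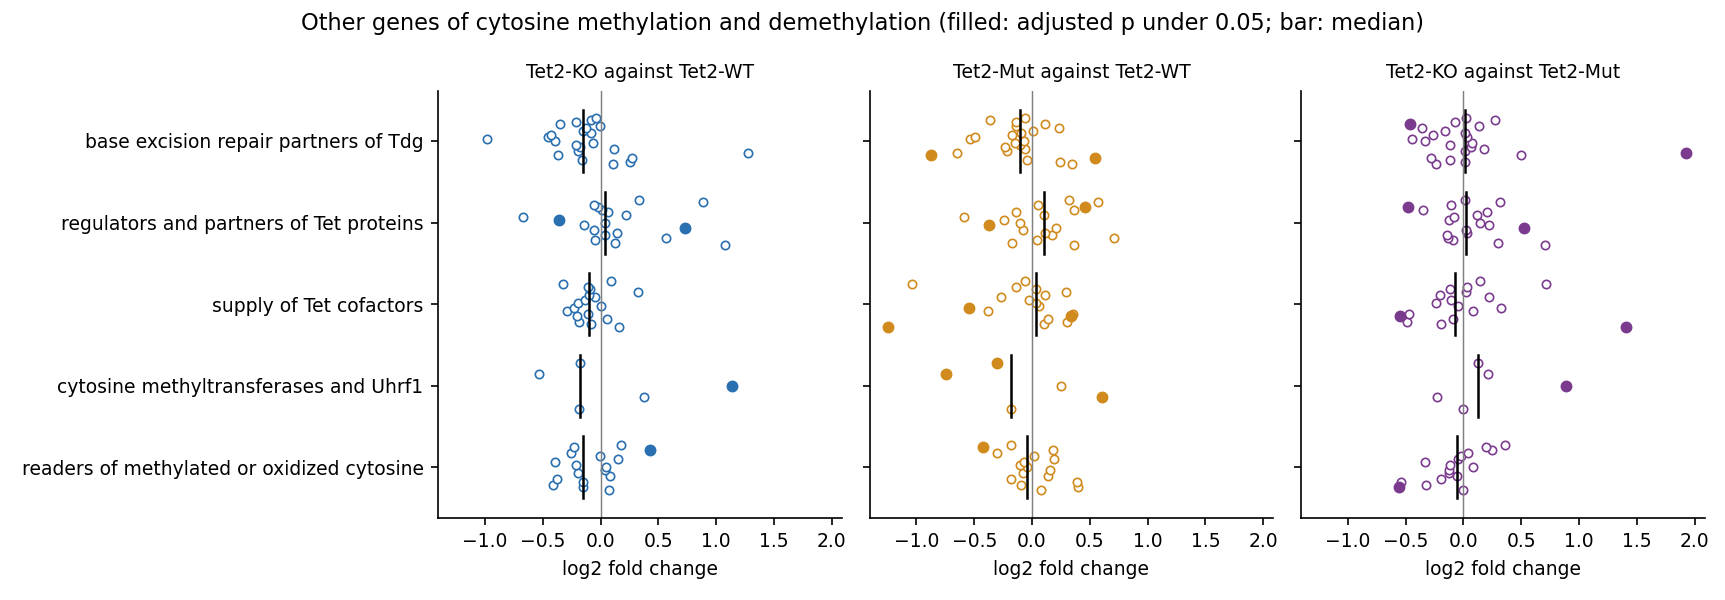
Log2 fold changes of the other genes of cytosine methylation and demethylation in 5 lists for the 3 comparisons, filled where the adjusted p was under 0.05, with a bar at each list's median. In Tet2-KO against Tet2-WT no filled point stands among the 23 repair genes, and the filled point of Dnmt3b lies at 1.14.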

How the data were processed

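RNA-seq of 7 libraries was analysed; the 3 bisulfite and 18 CUT&Tag samples were not used here. The authors deposited a linear signal per gene: counts scaled by the size factor of each library, as DESeq2 makes them. Trim Galore (0.6.5), the aligner STAR (2.7.3a), the counter featureCounts and the mm10 build are named in the submitters' processing notes. Whole reads were recovered: 100% of values lay within 0.01 of a whole number once divided by what 1 read is worth in that library. Of their low values (1 to 20 reads) 72.1% to 75.2% were even, and the sources used here do not say whether mates were counted separately. Every gene had at least 71 reads over the libraries. No replicates agreed within sampling noise.

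Limma 3.58.1 (R 4.3.3) was run on log2(normalized count + 1) for 17338 genes with at least 10 in at least 2 libraries, in 1 model of group means with a mean trend in the prior and Benjamini-Hochberg adjustment over all genes at 0.05. Fold changes are on this scale and understate those of low genes. Residual degrees of freedom were 4, and the prior added 5.03. The fit was tested on simulated data. Alternatives included edgeR 4.0.16 (TMM) and DESeq2 1.42.0 on the recovered reads, which called 1110 and 1992 genes in Tet2-KO against Tet2-WT. RefSeq (GRCm38.p6) matched 92.8% of the table's symbols and gave positions and sequences. The planned level per exon length was not computed.

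The 4 genes and the gene lists were chosen with earlier results of these data known. Named genes are the 4, per list and comparison up to 6 genes past the test or else the one with the smallest p, the methyltransferases, Uhrf1 and Ogt, the 3 nearest patterns of each, and neighbours. Mpg and Neil1 stand in both the repair and the reader list. The results of 1 further pathway list are not reported here.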

Additional observations from a re-analysis of the deposited data

How the results depend on the processing

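Each difference of Tet1, Tet2, Tet3 and Tdg kept its direction under other pseudocounts, filters, scalings, priors and tools. Leaving out 1 library reversed Tet2 in Tet2-Mut against Tet2-WT (-0.12 without Tet2-Mut replicate 2) and Tet3 in Tet2-KO against Tet2-Mut (-0.0274 without Tet2-Mut replicate 1, -0.0014 without Tet2-KO replicate 1), and none of the 3 values passed the test. Scaling by upper quartile or quantiles moved the median of all genes by between -0.0133 and 0.00647 on the log2 scale.

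The threshold mattered for more of them, and the cause was not tested. Without a mean trend in the prior, Tet2 in Tet2-KO against Tet2-WT (-1.15, adjusted p = 0.0742) and against Tet2-Mut (-1.23, 0.0581), Tet1 against Tet2-Mut (-0.57, 0.0854) and Tdg against Tet2-WT (0.34, 0.152) did not pass. With only the groups compared, Tet1 and Tet2 in Tet2-KO against Tet2-Mut did not pass (-0.57 and -1.23, adjusted p = 0.0861 and 0.0671), while Tet1 and Tet3 in Tet2-KO against Tet2-WT did (-0.27 and 0.63, adjusted p = 0.0205 for each). Tet1 in that comparison also passed with quantile normalization (-0.32, 0.0431), Tet3 with DESeq2 (0.65, 0.00866), and Tet1 in Tet2-Mut against Tet2-WT with DESeq2 (0.31, 0.0245). Tdg in Tet2-KO against Tet2-WT did not pass with the replicate block (0.33, 0.158) or summed with Tdg-ps2 (0.31, 0.0534). With 1 library left out, against Tet2-WT, Tdg in Tet2-KO ranged from 0.25 to 0.43, Tet1 in Tet2-KO from -0.31 to -0.23, Tet3 in Tet2-KO from 0.43 to 0.83, Tet1 in Tet2-Mut from 0.18 to 0.43, Tet2 in Tet2-Mut from -0.12 to 0.28 and Tet3 in Tet2-Mut from 0.20 to 0.66. Tdg in Tet2-Mut ranged from 0.09 to 0.25. In Tet2-KO against Tet2-Mut, Tet3 ranged from -0.03 to 0.43 and Tdg from 0.08 to 0.26.

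All genes past the test numbered 1025 in Tet2-KO against Tet2-WT, 594 in Tet2-Mut against Tet2-WT and 1074 in Tet2-KO against Tet2-Mut. In this order they were 19, 0 and 10 without a mean trend (limma, 3018 at an unadjusted p under 0.05 for the 0, and edgeR 582), 2153, 901 and 0 with only the groups compared (limma, 2351 unadjusted for the 0, and edgeR 1054), and 1992, 1555 and 1808 with DESeq2. With 1 library left out they ranged from 85 to 2158, from 6 to 2198 and from 530 to 2679. With the replicate block they were 15, 7 and 467. The labels do not say that replicate numbers pair the libraries. Same-numbered libraries had correlations of their deviations from the group means between -0.073 and 0.087, which does not settle whether they were paired. The length-based alternatives were not run, since exon lengths were not used here.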
